A study of Mus musculus with 16 samples.

Results

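The 35 genes described here mark the stroma, the mural cells and the extracellular matrix of the kidney. They comprise stromal transcription factors, platelet-derived growth factor (PDGF) receptors and pericyte genes, smooth muscle contractile genes, interstitial collagens, small leucine-rich proteoglycans, elastic fibre and fibulin genes, other matrix proteins, an intermediate filament and secreted signals. They were taken from a list by function, which was chosen with earlier results of these data known. All 50 non-control probes whose RefSeq accession belongs to one of them were used, of 56605 probes on the array. Of the 35 genes, 33 could be tested among 15646 genes, and 26 were well above background on all 16 arrays.

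The samples were total RNA of whole kidneys, taken from C57BL/6 mouse embryos at embryonic day 17.5 and measured on 2-colour Agilent arrays. The Ezh2-KO kidneys had a homozygous conditional deletion of Ezh2 in Six2-positive nephron progenitors and wild-type Ezh1. The Ezh1-het kidneys had the same Ezh2 deletion and lacked 1 germline allele of Ezh1, and the double knockout kidneys had it and lacked both. The control kidneys were labelled wild type. Each group had 4 arrays, and every array set its kidney RNA in Cy5 against RNA of control 1 in Cy3. All values are log2 of that ratio, with control 1 measured against itself, and no dyes were swapped. The Six2-positive lineage gives rise to nephron epithelium and not to stroma, so the Ezh2 deletion was not directed at stromal cells, whereas germline loss of Ezh1 reaches every cell of the kidney, stroma included.

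The stroma of the embryonic kidney descends largely from progenitors that express the forkhead factor Foxd1, which surround the nephron progenitors in the cortex. Their descendants include interstitial fibroblasts, pericytes, vascular smooth muscle and mesangial cells, which deposit fibrillar collagens, proteoglycans and elastic fibres. Ezh1 and Ezh2 are the alternative catalytic subunits of Polycomb repressive complex PRC2, which methylates a lysine of histone H3 at silenced genes and is often found at CG-rich promoters.

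RefSeq promoter sequences (GRCm38.p6) were found for 23 of the 35 genes, some with a second start, 27 promoters in all. Those of the 3 genes that rose in double knockout kidneys and of Col3a1, the gene with the widest spread between arrays, are shown over the 250 bases before the start. Capitals mark each CG dinucleotide and each TATAAA, searched on both strands.
Fbln2, chr6:91212514-91212763, plus strand: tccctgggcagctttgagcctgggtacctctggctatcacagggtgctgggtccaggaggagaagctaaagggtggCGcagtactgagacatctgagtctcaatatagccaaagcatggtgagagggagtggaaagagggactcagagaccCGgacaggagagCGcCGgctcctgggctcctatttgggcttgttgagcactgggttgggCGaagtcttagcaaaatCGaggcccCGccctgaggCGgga
Meis1, chr11:19018970-19019219, minus strand: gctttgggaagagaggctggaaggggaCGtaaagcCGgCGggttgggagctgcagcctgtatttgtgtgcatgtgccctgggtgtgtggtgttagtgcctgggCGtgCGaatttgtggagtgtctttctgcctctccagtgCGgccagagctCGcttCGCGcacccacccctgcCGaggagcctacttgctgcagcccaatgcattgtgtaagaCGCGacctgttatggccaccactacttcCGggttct
Foxd1, chr13:98353995-98354244, plus strand: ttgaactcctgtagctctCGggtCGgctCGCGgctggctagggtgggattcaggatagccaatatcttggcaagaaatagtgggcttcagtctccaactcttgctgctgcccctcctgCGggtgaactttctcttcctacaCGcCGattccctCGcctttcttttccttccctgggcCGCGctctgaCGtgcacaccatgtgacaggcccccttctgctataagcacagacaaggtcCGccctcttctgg
Col3a1, chr1:45311288-45311537, plus strand: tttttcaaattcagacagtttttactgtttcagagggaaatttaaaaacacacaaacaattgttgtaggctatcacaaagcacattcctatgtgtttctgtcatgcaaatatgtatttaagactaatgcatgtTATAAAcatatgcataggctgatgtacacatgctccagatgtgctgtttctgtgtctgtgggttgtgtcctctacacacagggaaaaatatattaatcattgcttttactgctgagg
The Fbln2 window held 8 CG dinucleotides, that of Meis1 13 and that of Foxd1 12, and 57.0%, 68.5% and 66.5% of all 32851 promoters of this length held fewer. That of Col3a1 held 0, with a GC content of 35.2%. Over the 27 promoters the median was 7, against 6 over all promoters. TATAAA stood in 8 of the 27, or 29.6%, against 12.4% of all promoters. They were those of Col3a1, Meis2, Ogn, Ecm1 and Vim, a Postn promoter, and both Tnc promoters. The Tnc windows overlap and were counted separately. These promoters are few, and the difference in share was not tested. The CArG box, the binding motif of serum response factor, was searched only as CC, 6 letters A or T, and GG. In this form it stood in 0 of the 27 and in 1.47% of all promoters. At that share 27 promoters are too few to tell the members from all promoters. The smooth muscle genes Tagln and Myh11 had no promoter in this set. These are descriptions of letters in these windows.

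The kidney label held on these arrays, since 6 of 6 nephron progenitor markers, Six2 among them, were well above background on all 16. Ezh1 differed from control by 0.12 in Ezh2-KO kidneys, -1.05 in Ezh1-het and -4.48 in double knockout kidneys. Of 5 Ezh2 probes, 1 differed by -3.53 to -3.19 in the 3 groups, and the other 4 differed by -0.58 to -0.22. Cy5 signal over background, at its 75th percentile, was weakest on control 2 (5.21) and strongest on Ezh2-KO 4 (16.6). Between 53.1% and 63.4% of probes were well above background. Control 3 (37.3) and Ezh2-KO 1 (31.4) had the highest scores on principal component 1, with 36.1% of the variance. Slide 1 held replicates 1 and 2 of every group and slide 2 replicates 3 and 4.

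Few of the stromal genes changed in any group, and the fibulin gene Fbln2 did so in all 3. In Ezh2-KO kidneys 2 of the 33 rose and 0 fell (limma, adjusted p under 0.05), namely Fbln2 and Meis1. That is 6.06%, against 2.4% of all genes called higher and 0.677% called lower. In Ezh1-het kidneys Fbln2 and Meis1 rose and Meis2 and Tnc fell, 6.06% in each direction, against 5.91% of all genes called higher and 1.9% called lower. In double knockout kidneys Fbln2, Meis1 and Foxd1 rose and 0 fell, or 9.09% against 3.71% of all genes called higher, with 0.914% called lower. At an unadjusted p under 0.05, 5 members were higher and 2 lower in Ezh2-KO, 8 and 2 in Ezh1-het, and 4 and 1 in double knockout kidneys. Of all genes 14.3% were higher and 6.93% lower at that threshold in Ezh2-KO, 17.0% and 8.48% in Ezh1-het, and 10.5% and 6.64% in double knockout kidneys, so the members' counts are near the background in Ezh2-KO and double knockout kidneys. The 3 comparisons share the same 4 control arrays. Because the genes were chosen with earlier results of these data known, their shares beside those of all genes are not an independent test.

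The median member differed from control by 0.25 in Ezh2-KO kidneys, 0.14 in Ezh1-het and 0.02 in double knockout kidneys, against medians over all genes of 0.06, 0.05 and 0.01. Leaving out controls 2 and 3, on which many of these genes were lowest, was chosen after seeing the data. Lower medians follow from that choice, and with fewer control arrays a call is more easily lost, so this setting cannot test the differences. Without these controls the members' medians were -0.08, -0.12 and -0.18. Fbln2 alone was then called in each comparison. The medians also differed between slides. In Ezh2-KO kidneys they were 0.10 on slide 1 and 0.47 on slide 2, and in double knockout kidneys 0.16 and -0.03. Under median centring in place of loess, the median of all genes moved to 0.41 in Ezh2-KO kidneys, 0.44 in Ezh1-het and 0.38 in double knockout kidneys, and the split in Ezh1-het became 12 members higher and 1 lower, where 49.5% of all genes were called higher and 1.87% lower.

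**Figure D1:**
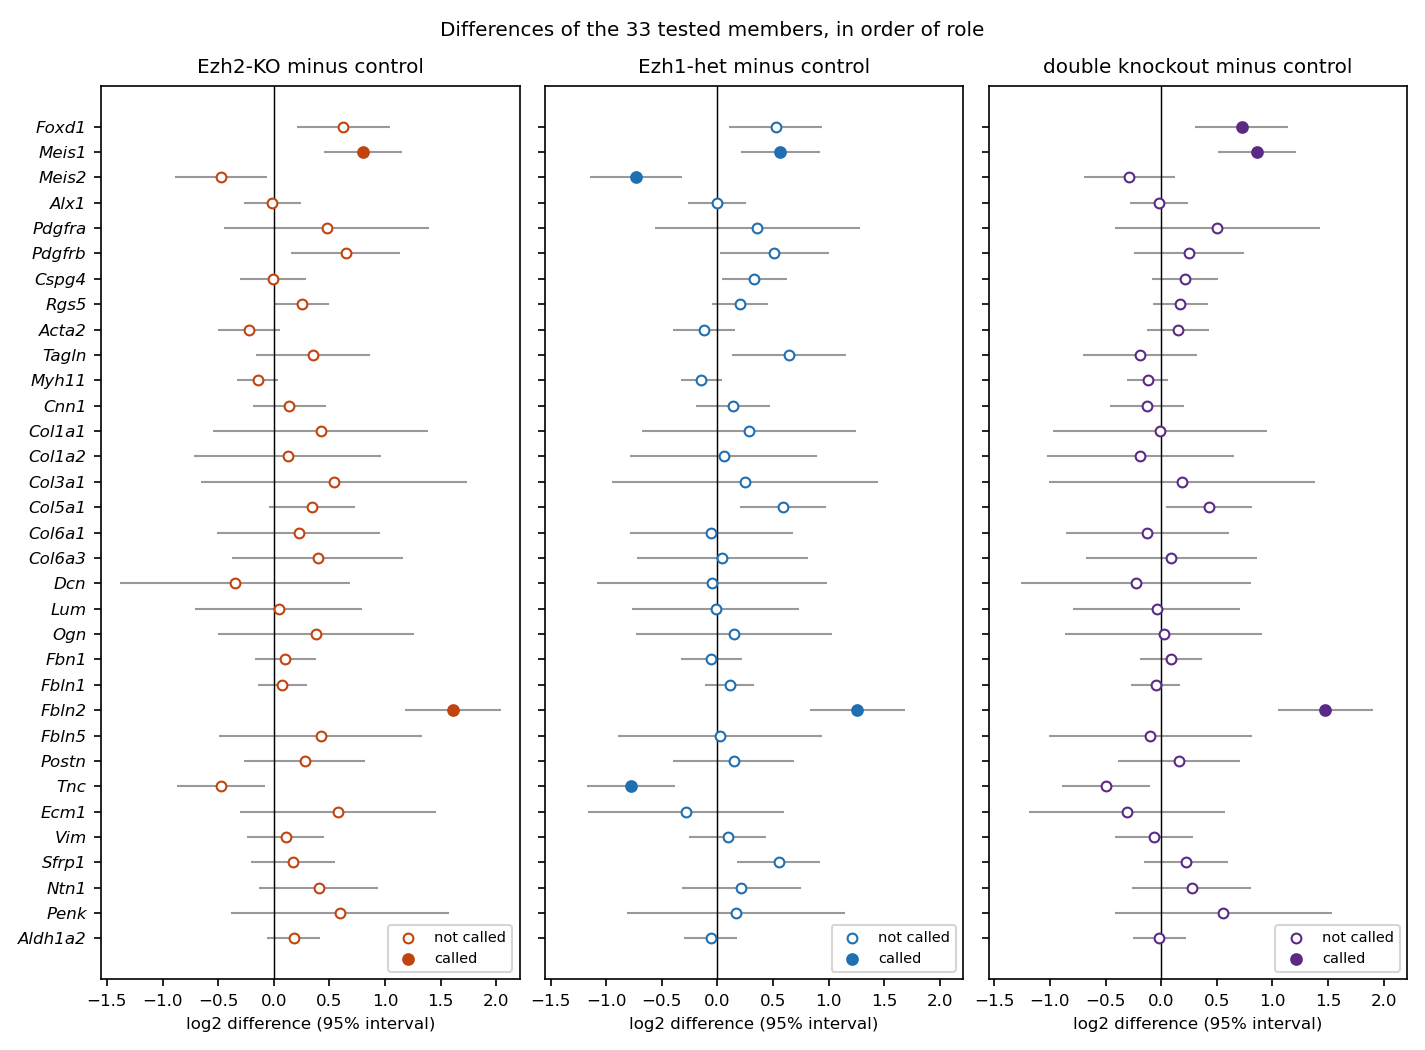
Log2 difference of each of the 33 tested genes (down the page, in order of role) between Ezh2-KO, Ezh1-het or double knockout kidneys and control kidneys, with its 95% interval from limma. Filled points passed an adjusted p of 0.05. Fbln2 stands at 1.61, 1.26 and 1.48, and the intervals of most collagens and proteoglycans reach well past 0 on both sides.

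Fbln2, measured here by a single probe, encodes fibulin-2, a secreted glycoprotein that binds fibrillin, basement membrane proteins and proteoglycans. Its log2 ratios were 1.62, 1.83, 1.43 and 1.45 in Ezh2-KO, 1.07, 1.35, 1.17 and 1.31 in Ezh1-het, 1.27, 1.78, 1.29 and 1.45 in double knockout, and 0.05, 0.14, -0.79 and 0.48 in control kidneys. Every array of the 3 Ezh2-deficient groups lay above every control array, and control 3 was the lowest of all. The difference from control was 1.61 (SE 0.20, 3.05-fold, adjusted p = 0.000778 by limma) in Ezh2-KO kidneys. In Ezh1-het kidneys it was 1.26 (SE 0.20, 2.39-fold, adjusted p = 0.00192 by limma), and in double knockout kidneys 1.48 (SE 0.20, 2.78-fold, adjusted p = 0.000303 by limma). Within slides the differences were 1.63 and 1.59 in Ezh2-KO, 1.12 and 1.40 in Ezh1-het, and 1.43 and 1.52 in double knockout kidneys. The 3 calls held in each of 16 fits that left out 1 array, and without controls 2 and 3 the differences were 1.31, 0.96 and 1.18. In whole-kidney RNA, more cells of a type, more RNA per cell and RNA from cells outside the stroma cannot be told apart. This holds here and for every gene below.

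Among the 12 Ezh2-deficient arrays Fbln2 was not ordered by Ezh1 dose. The Ezh1-het arrays all lay below the Ezh2-KO arrays, with a difference of -0.35 (95% interval -0.78 to 0.08, adjusted p = 0.672 by limma). The double knockout differed from Ezh2-KO by -0.13 (95% interval -0.56 to 0.29), with overlapping arrays. Fbln1, a close relative of Fbln2 found in basement membranes and elastic fibres, differed from control by 0.08, 0.11 and -0.05 in the Ezh2-KO, Ezh1-het and double knockout kidneys, and Fbln5, which organises elastic fibres, by 0.42, 0.02 and -0.10. Fbn1, encoding the microfibril protein fibrillin-1, differed by 0.10, -0.05 and 0.09, and by 0.405, 0.235 and 0.214 with a second probe. None of these 3 genes was called in a comparison with control. Eln, the gene of elastin, was well above background on 2 of 16 arrays, both of Ezh2-KO kidneys, and was not tested.

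Meis1 encodes a homeobox factor of the stromal lineage. Its ratios were 1.01, 0.89, 0.95 and 0.58 in Ezh2-KO, 0.35, 0.66, 0.87 and 0.61 in Ezh1-het, 1.01, 0.73, 1.01 and 0.93 in double knockout, and 0.15, -0.47, 0.05 and 0.51 in control kidneys. The Ezh2-KO and double knockout arrays all lay above the controls, while Ezh1-het 1 lay below control 4. The gene rose by 0.80 (SE 0.17, 1.74-fold, adjusted p = 0.0173) in Ezh2-KO, by 0.56 (SE 0.17, adjusted p = 0.0489) in Ezh1-het, and by 0.86 (SE 0.17, 1.81-fold, adjusted p = 0.00514) in double knockout kidneys, all by limma. The double knockout call held in 16 of 16 fits without 1 array and the Ezh2-KO call in 15, lost without Ezh2-KO 2, but the Ezh1-het call held in 4 (without control 4, Ezh1-het 1, Ezh2-KO 1 or Ezh2-KO 4). Without controls 2 and 3 the differences were 0.53 in Ezh2-KO kidneys, 0.29 in Ezh1-het and 0.59 in double knockout kidneys, with adjusted p-values of 0.173, 0.422 and 0.0538 by limma. The Ezh2-KO call was also lost within slide 2 and when 2 groups alone were fitted, and the double knockout call within each slide. Of 14 settings that did not leave out 1 array, the Ezh1-het call held in 3. A second Meis1 probe gave 0.45, 0.35 and 0.79 in the Ezh2-KO, Ezh1-het and double knockout kidneys, and it was called in the last of these (adjusted p = 0.0102 over all probes, limma).

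Foxd1, the factor that defines the cortical stromal progenitors, measured here by a single probe, was called in the double knockout. Its ratios were 0.45, 0.42, 0.63 and 0.61 in Ezh2-KO, 0.10, 0.62, 0.46 and 0.50 in Ezh1-het, 0.71, 0.32, 0.53 and 0.93 in double knockout, and 0.14, -0.75, 0.40 and -0.19 in control kidneys. Control 2 was far below the other controls and control 3 reached into the range of the double knockout. The difference was 0.72 (SE 0.20, 1.65-fold, adjusted p = 0.0450 by limma) in double knockout kidneys. It was 0.62 (adjusted p = 0.0902) in Ezh2-KO and 0.52 (adjusted p = 0.111) in Ezh1-het kidneys, neither called by limma. The double knockout did not differ detectably from Ezh2-KO kidneys, at 0.10 (95% interval -0.32 to 0.52). The double knockout call held in 4 of 16 fits without 1 array (double knockout 2, Ezh1-het 1, control 1 or control 3). Without controls 2 and 3 it was lost at 0.65. It was also lost with the software's processed ratio, without the filter on dim probes, when 2 groups alone were fitted, and within each slide.

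Meis2, a close relative of Meis1, went the other way in Ezh1-het kidneys. Its ratios were 0.36, 0.10, -0.11 and -0.62 in Ezh2-KO, -0.51, -0.35, -0.15 and -0.27 in Ezh1-het, 0.01, 0.54, -0.12 and 0.07 in double knockout, and 0.12, 0.81, 0.50 and 0.22 in control kidneys. The Ezh1-het arrays all lay below the controls, and the other groups overlapped them. Meis2 fell by 0.73 on the log2 scale (SE 0.20, 1.66-fold, adjusted p = 0.0336 by limma) in Ezh1-het kidneys, and differed by -0.48 in Ezh2-KO and -0.29 in double knockout kidneys without a call. A second probe gave -0.35 in Ezh1-het kidneys. The call was lost under median centring, where the difference was -0.54 relative to the median of all genes, without controls 2 and 3 (-0.49), and without Ezh1-het 1, 2 or 4, control 2 or control 3 alone. It was also lost with the software's processed ratio and within each slide. Alx1, a homeobox gene of mesenchyme, was well above background on 11 of 16 arrays and differed by -0.01, -0.01 and -0.02 in the Ezh2-KO, Ezh1-het and double knockout kidneys.

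Tnc encodes tenascin-C, a matrix glycoprotein of developing and remodelling mesenchyme. Its ratios were 0.14, 0.10, -0.21 and -0.71 in Ezh2-KO, -0.65, -0.50, -0.19 and -0.53 in Ezh1-het, -0.25, -0.01, -0.29 and -0.20 in double knockout, and 0.02, 0.72, 0.50 and -0.004 in control kidneys. Controls 2 and 3 were high, and controls 1 and 4 lay close to the highest double knockout array. Tnc fell by 0.78 (SE 0.19, 1.71-fold, adjusted p = 0.0211 by limma) in Ezh1-het kidneys, and differed by -0.48 in Ezh2-KO and -0.49 in double knockout kidneys, where the adjusted p-values were 0.161 and 0.173 by limma. A second Tnc probe gave -0.25 in Ezh1-het kidneys, and the call was lost when the passing probes of a gene were averaged. It held in 11 of 16 fits without 1 array, and was lost without Ezh1-het 1, 2 or 4, control 2 or control 3 alone and without both of these controls (-0.48). Within each slide it was lost too.

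**Figure D2:**
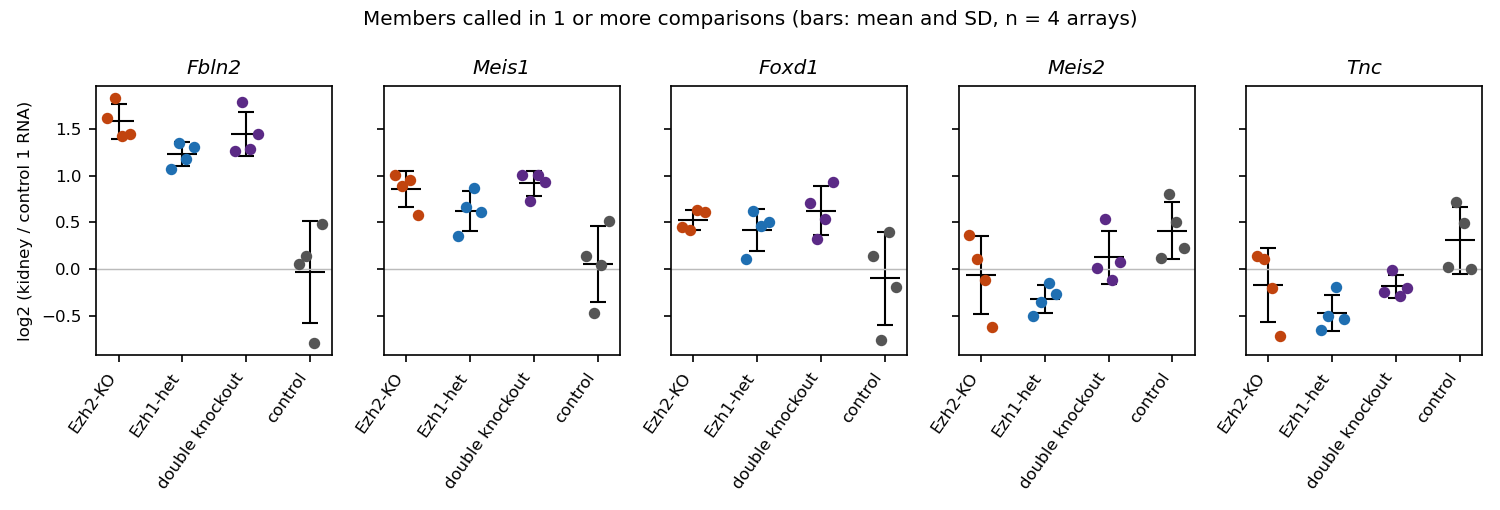
Log2 ratio to control 1 RNA (vertical axis) of the 5 genes called in 1 or more comparisons, with 1 point for each array of Ezh2-KO, Ezh1-het, double knockout and control kidneys, and the mean and SD of 4 arrays. The control arrays spread widely for all 5, from -0.79 to 0.48 for Fbln2, and every Ezh2-deficient array lies above them for Fbln2 alone.

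Most interstitial collagens and proteoglycans differed far more between kidneys of 1 genotype than between genotypes. Col3a1, a fibrillar collagen of the interstitium, had ratios of -0.63, -0.64, 1.16 and -0.07 in Ezh2-KO, -1.43, 0.20, 0.60 and -0.72 in Ezh1-het, 0.15, -0.88, -0.11 and -0.76 in double knockout, and -0.14, -1.72, -1.42 and 0.95 in control kidneys. Ezh2-KO 3 and control 4 were the highest, controls 2 and 3 and Ezh1-het 1 the lowest, and all groups overlapped. The difference from control was 0.54 in Ezh2-KO (95% interval -0.66 to 1.73), 0.25 in Ezh1-het (95% interval -0.95 to 1.44) and 0.18 in double knockout kidneys (95% interval -1.01 to 1.38). None was called, and all 3 intervals reach past a 2-fold rise (1 on the log2 scale), so a rise of that size lies within each of them.

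Col1a1 and Col1a2, the chains of type I collagen, were high and low on much the same arrays. Col1a1 ran from -0.56 to 1.20 in Ezh2-KO, -0.999 to 0.66 in Ezh1-het, -0.82 to -0.04 in double knockout and -1.20 to 0.74 in control kidneys. Its differences were 0.42, 0.28 and -0.01, with SE 0.45, and 2 probes of the gene moved together on all arrays. Col1a2 differed by 0.13, 0.06 and -0.19, Col6a1 by 0.22, -0.05 and -0.13, and Col6a3 by 0.39, 0.05 and 0.09 in the Ezh2-KO, Ezh1-het and double knockout kidneys. These encode type I and the beaded-filament type VI collagen. A second Col6a3 probe gave -0.004, -0.102 and -0.229 in the same groups.

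Col5a1, whose product nucleates collagen fibrils, varied less. Its ratios were -0.03, 0.05, 0.44 and 0.23 in Ezh2-KO, 0.11, 0.57, 0.45 and 0.54 in Ezh1-het, 0.24, 0.11, 0.52 and 0.15 in double knockout, and -0.14, -0.76, -0.12 and 0.34 in control kidneys. Control 4 stood inside the range of each other group. The difference of 0.59 in Ezh1-het kidneys (SE 0.18) had an adjusted p of 0.0602 by limma, and of 0.0296 with the slide as a block, where it was called; those in Ezh2-KO and double knockout kidneys were 0.34 and 0.43, not called. Col14a1, a fibril-associated collagen, was well above background on 3 of 16 arrays and was not tested.

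Dcn, encoding decorin, which binds collagen fibrils and growth factors, had ratios of -1.55, -1.16, 0.95 and -0.10 in Ezh2-KO, -0.98, 0.29, 0.51 and -0.50 in Ezh1-het, 0.10, -0.56, -0.21 and -0.71 in double knockout, and 0.01, -0.77, -0.65 and 0.93 in control kidneys. Its lowest and highest arrays were both Ezh2-KO kidneys. The differences from control were -0.35, -0.05 and -0.23, with SE 0.49. Lum and Ogn, encoding the related proteoglycans lumican and osteoglycin, differed by 0.04 and 0.38 in Ezh2-KO, -0.02 and 0.15 in Ezh1-het, and -0.04 and 0.02 in double knockout kidneys, and were not called.

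Over the 6 tested collagens and 3 proteoglycans, the same arrays were extreme within each group. Ezh2-KO 3 was the highest of its group for 9 of 9 genes and control 4 for 9 of 9, Ezh1-het 3 for 8 and Ezh1-het 1 the lowest for 9. In the double knockout group, array 1 was highest for 5 and array 3 for 4, and array 2 lowest for 7. Control 2 was lowest for 7 and control 3 for 2. The mean over the 6 collagens was -0.37, -0.40, 0.90 and 0.04 in Ezh2-KO, -0.82, 0.25, 0.49 and -0.34 in Ezh1-het, -0.01, -0.54, 0.02 and -0.41 in double knockout, and -0.07, -0.97, -0.88 and 0.73 in control kidneys. The double knockout arrays held no mean well above 0, unlike arrays of the other groups.

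The order reached beyond the collagens and proteoglycans. Over all 33 tested genes, with the collagens and proteoglycans included, Ezh2-KO 3 was highest in its group for 23. Ezh1-het 3 was highest for 25 and control 4 for 23, and Ezh1-het 1 was lowest for 29. How often these arrays were extreme over all genes was not counted, so these counts do not set the members apart from other genes. The SD within groups had a median of 0.32 over the members and 0.16 over all genes tested, and 31 of 33 members stood above the latter. It was 0.91 for Col3a1, 0.79 for Dcn, 0.74 for Penk, 0.70 for Pdgfra and 0.70 for Fbln5, each above 98% of all genes.

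**Figure D3:**
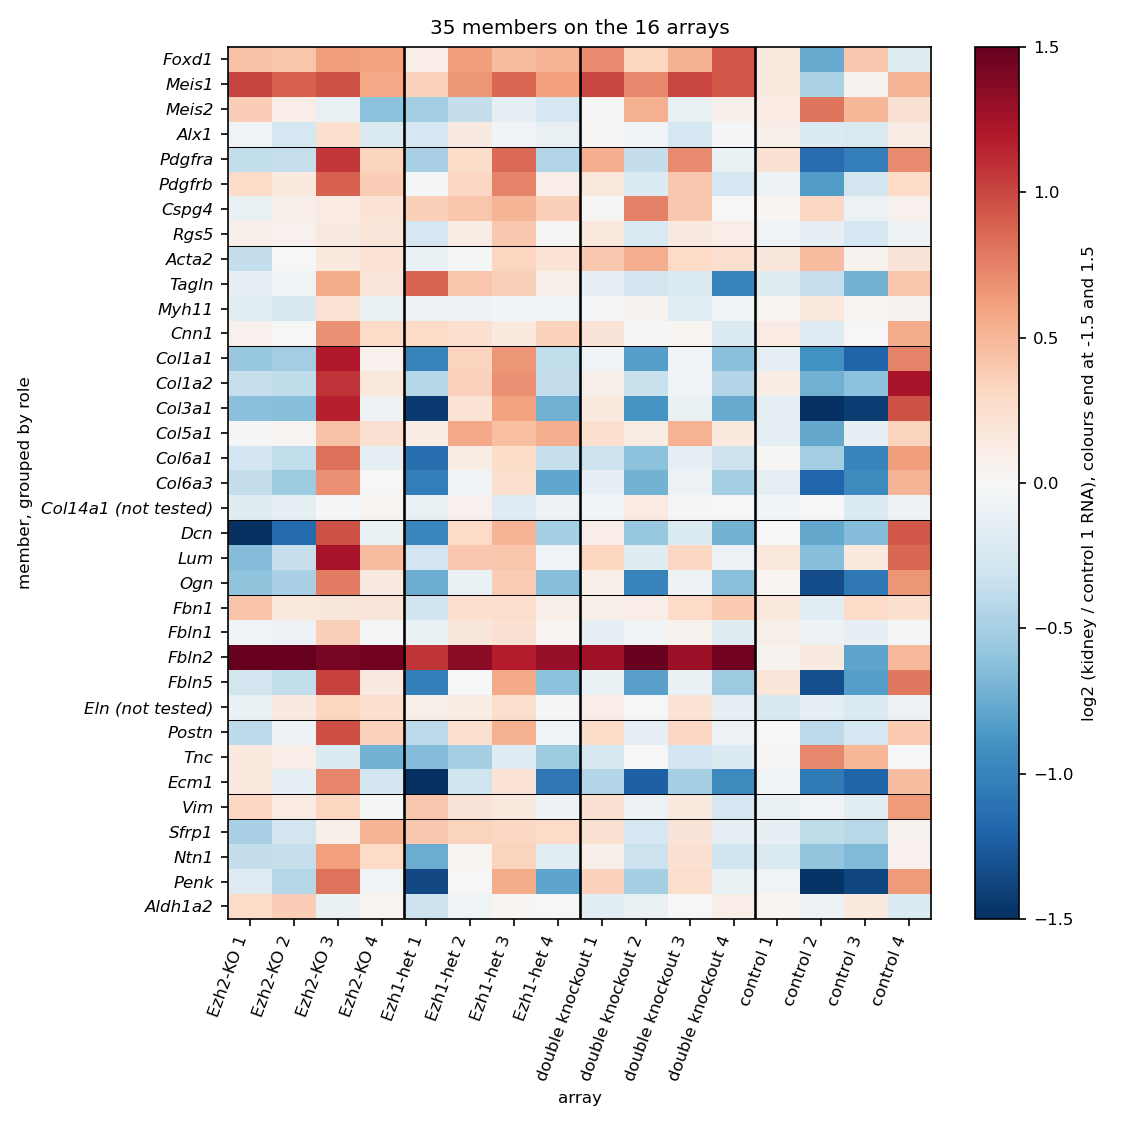
Log2 ratio to control 1 RNA of the 35 genes (rows, grouped by role) on the 16 arrays (columns: Ezh2-KO, Ezh1-het, double knockout and control kidneys), with red above 0 and blue below. Col1a1, Col1a2, Col3a1, Col6a1, Col6a3, Dcn, Ogn, Pdgfra, Fbln5, Ecm1 and Penk are red on Ezh2-KO 3 and control 4 and blue on Ezh1-het 1 and controls 2 and 3, whereas Fbln2 is red on the 12 Ezh2-deficient arrays.

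Other measures moved with this order in part. The mean of 6 macrophage markers, all 6 above background on at least 15 of 16 arrays, was -0.03, 0.19, 0.71 and 0.28 in Ezh2-KO, -0.22, 0.10, 0.52 and -0.20 in Ezh1-het, 0.50, -0.09, 0.53 and -0.08 in double knockout, and 0.08, -0.26, -0.24 and 0.33 in control kidneys. Within each group its highest arrays were also those with the highest collagen means, although on double knockout 1 and 3 the collagen means were near 0. None of the 6 was called in a comparison with control, and their part in the spread of the matrix genes was not tested. The mean of 6 proximal tubule markers ran from -2.41 to 0.34 in Ezh2-KO, -0.13 to 0.51 in Ezh1-het, -2.51 to -1.09 in double knockout and -2.11 to 0.33 in control kidneys. It was low on Ezh2-KO 1 and control 3, where collagens were low, and high on control 2 and Ezh1-het 1, where they were low too. Cy5 signal over background was 13.1 on Ezh2-KO 3 and 7.96 on control 4, both high in collagens, and 12.2 on Ezh1-het 1 and 5.21 on control 2, both low.

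Markers of tissues that could adhere to a dissected kidney were also examined. Of all genes, 2.4% were called higher and 0.677% lower in Ezh2-KO, 5.91% and 1.9% in Ezh1-het, and 3.71% and 0.914% in double knockout kidneys. The mean of 4 measured liver markers of 6 ran from -1.80 to 0.46 in Ezh2-KO, 0.29 to 1.02 in Ezh1-het, -1.11 to 0.81 in double knockout and -1.69 to -0.05 in control kidneys, lowest on Ezh2-KO 1 and control 3 and highest on Ezh1-het 1, with Apoa1 and Ahsg above background on 0 arrays. Of the 4, 1 was called higher in Ezh1-het kidneys and 0 in the other groups. The mean of 5 measured cartilage markers of 6 stayed between -0.22 and 0.06 on all arrays, with Acan above background on 0, and that of 3 adrenal markers of 6 between -0.07 and 0.13, with Cyp11a1, Cyp11b1 and Hsd3b1 above background on 0. Col2a1 was lower in Ezh1-het (-0.89) and double knockout kidneys (-0.68), and Matn1, above background on 1 and 0 of their 4 arrays, was called lower in both. Comp, above background on 0 of 4 control arrays, was called higher in Ezh1-het kidneys. Of 2 measured skeletal muscle markers of 6, the mean was between -0.29 and -0.03 on 15 arrays and 1.08 on control 4. Among podocyte markers 4 of 6 were higher in Ezh1-het kidneys. Of the neutrophil markers S100a8 and S100a9, 2 of 4 measured, were higher in Ezh2-KO kidneys by 1.76 and 2.44. Of nephron progenitor markers 2 of 6 fell in Ezh2-KO kidneys, 3 in Ezh1-het and 2 in double knockout kidneys. Their part in the calls of the stromal genes was not tested.

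**Figure D4:**
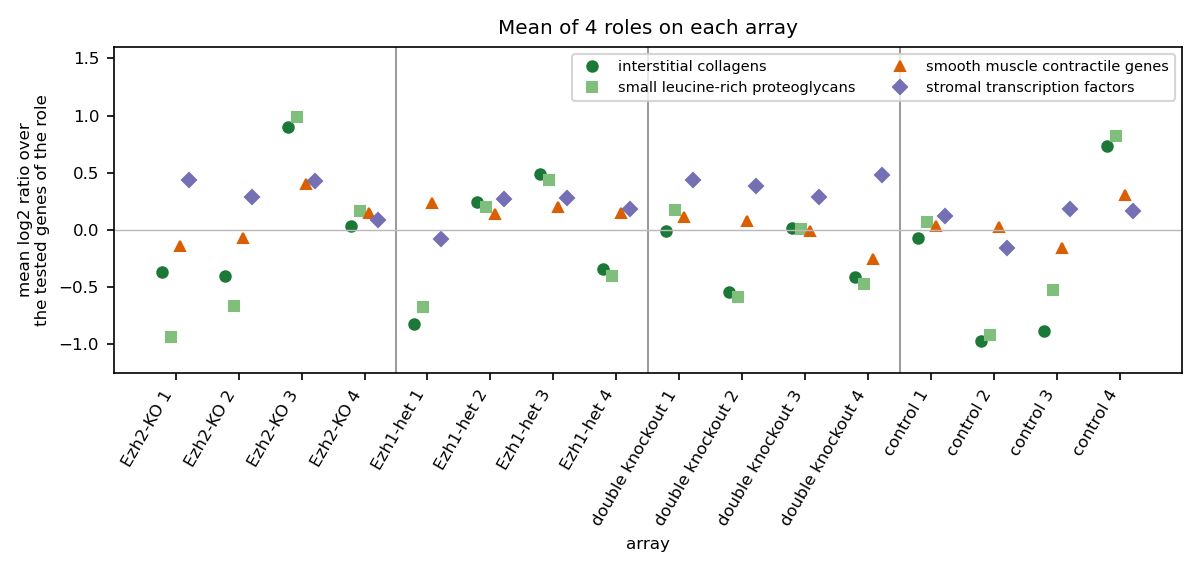
Mean log2 ratio to control 1 RNA (vertical axis) of the tested interstitial collagens, small leucine-rich proteoglycans, smooth muscle contractile genes and stromal transcription factors on each of the 16 arrays. Collagens and proteoglycans move together, with their highest means on Ezh2-KO 3 (0.90 and 0.98), the lowest collagen mean on control 2 (-0.97) and the lowest proteoglycan mean on Ezh2-KO 1 (-0.94), and the smooth muscle genes stay between -0.26 and 0.40.

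The PDGF receptors and pericyte genes gave 0 calls of 4 in each comparison with control. Pdgfra, the PDGF receptor of interstitial fibroblasts, followed the collagens, with ratios of -0.38, -0.34, 1.06 and 0.33 in Ezh2-KO, -0.48, 0.28, 0.85 and -0.44 in Ezh1-het, 0.54, -0.36, 0.71 and -0.10 in double knockout, and 0.23, -1.14, -1.03 and 0.71 in control kidneys. All groups overlapped, and the differences were 0.48, 0.36 and 0.50 with SE 0.435. Pdgfrb, the receptor of pericytes and mesangial cells, differed by 0.65 (SE 0.23, adjusted p = 0.130 by limma) in Ezh2-KO kidneys, 0.51 in Ezh1-het and 0.25 in double knockout kidneys. Cspg4, the pericyte proteoglycan NG2, differed by -0.01, 0.33 and 0.22, and in Ezh1-het kidneys all 4 arrays (0.36, 0.42, 0.51 and 0.36) lay above the controls (0.03, 0.31, -0.09 and 0.07), at an adjusted p of 0.149 by limma. Rgs5, a G-protein regulator of pericytes, differed by 0.25, 0.20 and 0.17 and was above background on 12 of 16 arrays.

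Smooth muscle contractile genes gave 0 calls of 4 as well, and of these 4 genes Tagln differed most between the Ezh2-deficient groups. Tagln encodes the actin-binding protein transgelin. Its ratios were -0.12, -0.05, 0.56 and 0.18 in Ezh2-KO, 0.87, 0.42, 0.36 and 0.09 in Ezh1-het, -0.12, -0.27, -0.21 and -0.99 in double knockout, and -0.18, -0.35, -0.71 and 0.42 in control kidneys. The double knockout arrays all lay below the Ezh1-het arrays and, by a narrow margin, the Ezh2-KO arrays, and each group overlapped the controls. The double knockout differed from Ezh1-het by -0.83 (SE 0.24, adjusted p = 0.131) and from Ezh2-KO by -0.54 (adjusted p = 0.369), neither called by limma. Cnn1, encoding calponin, differed from control by 0.14, 0.14 and -0.13, and Myh11, smooth muscle myosin, by -0.14, -0.14 and -0.12.

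Acta2, smooth muscle actin, had 2 passing probes that disagreed. The brighter one differed from control by -0.22 in Ezh2-KO kidneys, -0.12 in Ezh1-het and 0.15 in double knockout kidneys. The second gave -0.11, -0.23 and -0.75, with ratios of -0.71, -0.93, -0.66 and -1.29 in double knockout against -0.14, -0.01, -1.05 and 0.59 in control kidneys. Neither probe was called, the second with an adjusted p of 0.190 over all probes by limma in the double knockout. The direction for Acta2 in the double knockout thus rests on the probe, and in Ezh1-het kidneys the brighter probe gave 0.48 under median centring, which is 0.04 relative to the median of all genes in that setting. In all, 9 genes had several passing probes, and the pair of Col1a1 lay close to equal values.

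**Figure D5:**
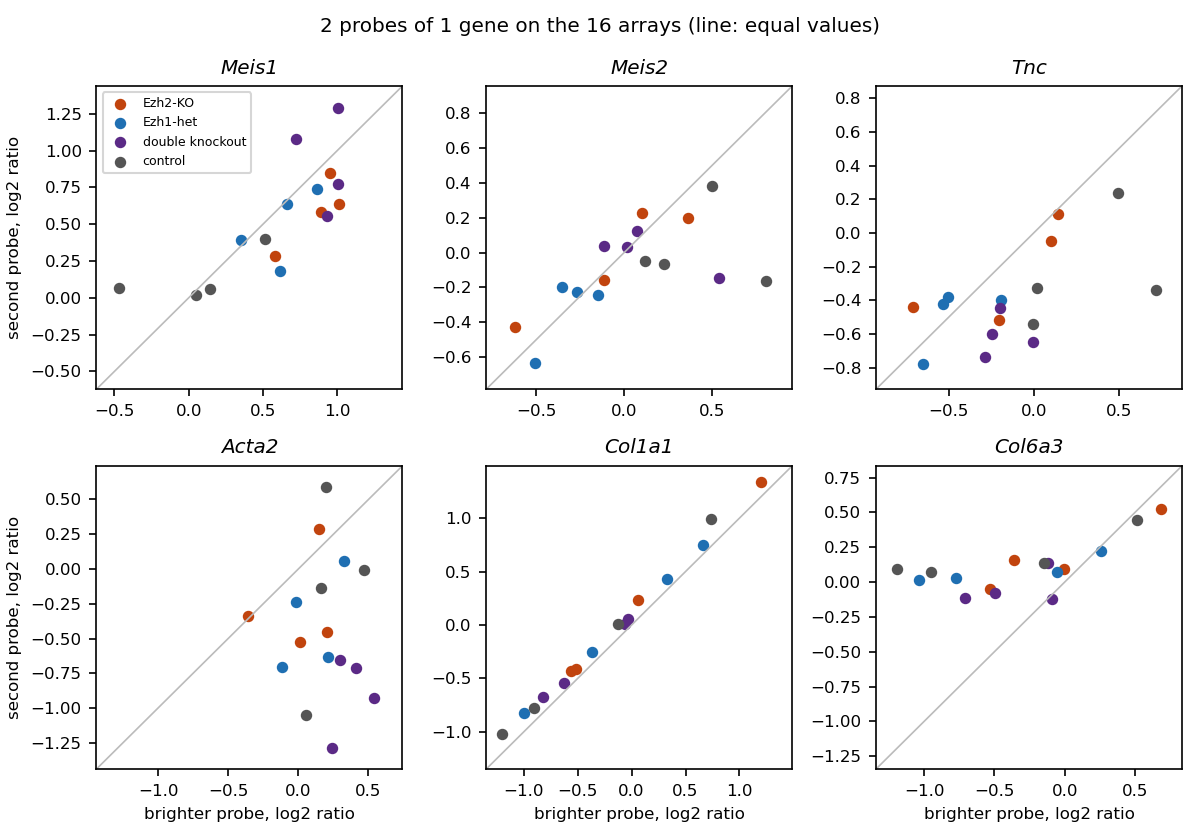
Log2 ratio to control 1 RNA of the brighter probe (horizontal axis) and the second probe (vertical axis) of 6 genes, with 1 point per array of Ezh2-KO, Ezh1-het, double knockout and control kidneys. The points of Col1a1 run along the line of equal values, those of Acta2 do not, and the second Col6a3 probe spreads less than the first.

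Postn, Ecm1, Vim and the secreted signals were not called. Ecm1, a secreted matrix protein, had ratios of 0.14, -0.14, 0.74 and -0.29 in Ezh2-KO, -1.85, -0.30, 0.21 and -1.07 in Ezh1-het, -0.44, -1.22, -0.50 and -0.95 in double knockout, and -0.07, -1.06, -1.20 and 0.46 in control kidneys. The double knockout arrays all lay below the Ezh2-KO arrays, by -0.89 on average (SE 0.415, adjusted p = 0.386 by limma). Postn, the matricellular protein periostin, differed from control by 0.28, 0.14 and 0.16. Vim, the mesenchymal intermediate filament, differed by 0.11, 0.09 and -0.07.

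Sfrp1, a secreted inhibitor of Wnt signalling, had ratios of -0.49, -0.27, 0.08 and 0.51 in Ezh2-KO, 0.40, 0.34, 0.31 and 0.29 in Ezh1-het, 0.23, -0.25, 0.19 and -0.14 in double knockout, and -0.13, -0.38, -0.41 and 0.06 in control kidneys. Its Ezh1-het arrays were closely grouped above all controls, whereas the Ezh2-KO arrays spanned them. The Ezh1-het difference of 0.55 (SE 0.18) had an adjusted p of 0.0678 by limma. Penk, the enkephalin precursor, differed by 0.60, 0.17 and 0.56 with SE 0.46 and followed the collagens. Ntn1, the guidance cue netrin-1, differed by 0.40, 0.21 and 0.27, and Aldh1a2, a retinoic acid synthesising enzyme, by 0.18, -0.06 and -0.02.

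Among the 3 Ezh2-deficient groups 0 of 33 members were called in any comparison by limma. For double knockout over Ezh2-KO, 0.639% of all genes were called higher and 0.275% lower, for Ezh1-het over Ezh2-KO 0.0383% and 0.0192%, and for double knockout over Ezh1-het 0.236% and 0.141%. At an unadjusted p under 0.05, 3, 3 and 2 members differed in these comparisons, against 12.7%, 7.37% and 13.7% of all genes, so these counts do not stand out from the background. They were Acta2 (0.37), Tagln and Ecm1 between double knockout and Ezh2-KO, Cspg4 (0.34), Sfrp1 (0.38) and Aldh1a2 (-0.24) between Ezh1-het and Ezh2-KO, and Meis2 (0.45) and Tagln between double knockout and Ezh1-het. These 8 differences were named after their values were seen.

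Genes of related lists, chosen with earlier results of these data known, were counted in the same way. Of all genes, 2.4% were called higher and 0.677% lower in Ezh2-KO, 5.91% and 1.9% in Ezh1-het, and 3.71% and 0.914% in double knockout kidneys. Of 23 further renal stroma genes tested, 2 rose in Ezh2-KO kidneys, 4 in Ezh1-het and 6 in double knockout kidneys, and 0 fell. Dlk1, a membrane protein of immature mesenchyme, rose by 1.04, 1.23 and 1.72, and Gli1, a target and effector of hedgehog signalling, by 0.73, 0.83 and 1.28 in the Ezh2-KO, Ezh1-het and double knockout kidneys. Prrx1, a homeobox gene of mesenchyme, rose by 0.62 in Ezh1-het and 1.39 in double knockout kidneys. Its ratios were 0.70, 0.59, 0.47 and 0.35 in Ezh2-KO, 0.68, 0.61, 0.85 and 0.73 in Ezh1-het, 1.53, 1.74, 1.53 and 1.16 in double knockout, and 0.10, 0.20, 0.18 and -0.09 in control kidneys. The double knockout arrays of Prrx1 lay above all others. Tbx3, a T-box factor, rose by 1.36 in the double knockout, and Crabp1 and Twist1 made up the rest of the calls.

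In the retinoic acid pathway 0 of 12 genes were called in Ezh2-KO, 4 rose and 1 fell in Ezh1-het, and 3 rose and 1 fell in double knockout kidneys. The retinol carrier gene Rbp4 rose by 1.26 in Ezh1-het and 1.76 in double knockout kidneys, and the retinoic acid synthesising enzyme Aldh1a3 by 0.97 and 1.45. Cyp26a1, which degrades retinoic acid, was called higher in both but was above background on 1 of 4 control arrays, and Rarg, a retinoic acid receptor, rose in Ezh1-het kidneys by 0.55. Of 5 netrin receptors tested, Unc5a rose in all 3 groups, by 0.73, 0.77 and 0.97, and Unc5b in Ezh1-het and double knockout kidneys by 0.68 and 0.90. Of 4 PDGF ligands, 0 were called in Ezh2-KO and double knockout kidneys and Pdgfc fell by 0.74 in Ezh1-het kidneys.

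Of 39 further matrix genes, 1 rose in Ezh2-KO, 2 rose and 1 fell in Ezh1-het, and 1 rose and 1 fell in double knockout kidneys. Efemp1, another fibulin, rose by 0.83 in Ezh1-het kidneys, and Fbn2, encoding fibrillin-2, fell by 0.73 in Ezh1-het and 0.66 in double knockout kidneys. Ltbp4, which stores latent TGF-beta in the matrix, rose by 0.62 in double knockout kidneys. Of 20 further mural genes, Tpm2, encoding beta-tropomyosin, fell in all 3 groups, by 0.64, 0.71 and 0.55. Ren1, encoding renin, rose by 0.70 in Ezh2-KO kidneys, and Vtn, above background on 0 of 4 double knockout arrays, was called lower there. Of 12 TGF-beta pathway genes, the receptor Tgfbr2 fell by 0.43 in Ezh1-het and 0.59 in double knockout kidneys, Tgfbr3 and Ccn2 rose in Ezh1-het kidneys by 0.72 and 0.71, and 0 were called in Ezh2-KO kidneys.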

How the data were processed

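The 16 arrays were read as deposited. Per the file headers, the authors' scanner files came from Agilent Feature Extraction 10.7.3.1 and hold median spot and background intensity per channel, and a log10 ratio of processed Cy5 over Cy3. In the authors' value table the log10 ratio differed from it by at most 0.005. Aligned probe positions and the array's genome build were not used here. Symbols came from a RefSeq table (GRCm38.p6) by accession, and 29339 of 29638 RefSeq mRNA probes matched.

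Median intensities were corrected with normexp (offset 50) and normalised by loess within arrays, with control and outlier spots at weight 0, in limma 3.58.1 under R 4.3.3. The design had assumed mean spot signals, and medians were used because the deposited intensity columns hold medians. The resulting log2 ratios were computed from the deposited intensities. Spots of a probe were averaged. The filter kept 34732 probes, those whose Cy5 signal was well above background on 4 or more arrays, and the brightest stood for its gene, so a gene could pass through 1 group alone. All 16 arrays entered 1 limma fit without covariates, adjusted by Benjamini-Hochberg over 15646 genes, two-sided, at 0.05. No spot was saturated. The number of arrays limits the precision. The replicates are biological per the series' design text, and the p-values rest on their spread.

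The 35 genes, their roles, the related lists and the markers were chosen with earlier results of these data known. Called members are given array by array. Some uncalled members are also given array by array, which the design had not planned, and the others by range and counts. From each related list up to 4 called genes with the largest absolute differences against control are described. For the renal stroma list the remaining called genes are named too. The fit was also run on simulated data with independent noise for each gene. Such data lack the shared order of arrays seen for the members, so that run does not cover it.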

Additional observations from a re-analysis of the deposited data

Results flagged for a closer look

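Of 132 sets of 4 arrays (33 genes in 4 groups), 5 held an array whose gap to its nearest neighbour was too large a share of the range of the set (Dixon's test), and chance flags about 1 in 20 sets. Rgs5 was -0.23 on double knockout 2, with its nearest neighbour at 0.09. Myh11 was 0.16 on control 2, against 0.05 on the nearest control, a small difference. Fbn1 was 0.43 on Ezh2-KO 1, against 0.18. Fbln1 was 0.36 on Ezh2-KO 3, against -0.03, and Vim 0.63 on control 4, against -0.05. The arrays Ezh2-KO 3 and control 4 were also the highest of their groups for the collagens. None of these 5 genes was called in a comparison.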

How the results depend on the processing

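The fits were repeated under 30 other settings, 16 of which left out 1 array. Of the 9 calls against control, 0 changed sign under any setting. The calls of Fbln2 were lost within slide 2 alone and held elsewhere. Of the 90 uncalled differences from control, 69 were called under no setting, 15 under median centring alone, and 67 changed sign in at least 1 setting.

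The number of members called in Ezh2-KO kidneys was 9 under median centring, 1 when 2 groups alone were fitted, 1 without controls 2 and 3, and 0 within slide 2, in place of 2. In Ezh1-het kidneys it was 13 under median centring, 8 with array weights, 2 within slide 1, 2 with the software's processed ratio, 2 with the mean of passing probes, 1 without controls 2 and 3, and 0 within slide 2, in place of 4. In double knockout kidneys it was 7 under median centring, 1 within slide 1, 1 without controls 2 and 3, and 0 within slide 2, in place of 3. Without 1 array it ran from 1 to 3 in Ezh2-KO, 1 to 6 in Ezh1-het and 2 to 3 in double knockout kidneys. The 1 in Ezh2-KO kidneys came without Ezh2-KO 2. In Ezh1-het kidneys 1 came without control 2, Ezh1-het 2 or Ezh1-het 4, 2 without control 3, and 6 without control 4. The 0 calls between Ezh2-deficient groups became 2 for Ezh1-het over Ezh2-KO within slide 1 (Sfrp1 and Tagln) and 1 for double knockout over Ezh1-het with those groups alone (Tagln), and without 1 array stayed at 0. Fits within 1 slide rest on 2 arrays a group. With the software's processed ratio, 4.37% of all genes were called higher and 1.87% lower in Ezh1-het kidneys. For settings other than the main fit, this one and median centring, the share of all genes called is not given here. The counts under those settings, blocks and array weights included, therefore cannot tell a change in the members from a change over all genes.

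Median centring, under which 42.6%, 49.5% and 33.2% of all genes were called higher in the Ezh2-KO, Ezh1-het and double knockout kidneys, turned Acta2 (0.48) and Aldh1a2 (0.60) to called rises in Ezh1-het, and Aldh1a2 (0.66) in double knockout kidneys. Relative to the median of all genes these are 0.04, 0.16 and 0.28. With the replicate number as a replicate block, 2, 4 and 3 members were called against control. Col5a1 (adjusted p = 0.0499, limma) then replaced Meis1 (0.0597) in Ezh1-het kidneys. With the slide as a block 2, 5 and 3 were called, the 9 calls and Col5a1 in Ezh1-het kidneys. Deviations of same-numbered arrays correlated from -0.48 to 0.51. Their median was 0.02, against -0.002 for arrays of other numbers, so no pairing by number was detected. Leaving out controls 2 and 3 was chosen after seeing the data, and the causes of these changes were not tested. Dim probes (Alx1, Rgs5, Myh11) limit small differences.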
